A study of Mus musculus with 6 samples.

Results

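The genes examined were 10 genes of the basement membrane, found by symbol among the 22851 rows of a table of read counts: the laminin alpha chain genes Lama1, Lama2, Lama4 and Lama5, the beta chain genes Lamb1 and Lamb2, the gamma chain gene Lamc1, the nidogen genes Nid1 and Nid2, and the perlecan gene Hspg2. They were chosen for what their proteins are, with earlier results of these data known. RNA came from radial glial cells, the progenitors that line the brain ventricles, taken from the brains of mice 0 to 3 days old on the C57BL/6J background. The cells were grown in medium with 10% serum and then kept without serum for 6 days, a change that starts their differentiation into multiciliated ependymal cells, and the study compares genotypes to find genes that depend on Edf1 in this process. The 3 wild-type (WT) libraries and the 3 Edf1 knockout (Edf1 KO) libraries went through the same culture and differ, per the labels, in genotype alone. The Edf1 KO mice were made with CRISPR/Cas9, and the replicates are called biological. The allele, and whether each library comes from 1 mouse, 1 litter or pooled animals, are not given in the sources used here, so the p-values measure only the spread between these libraries.

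A basement membrane is a thin sheet of matrix under epithelia, around vessels and at the surface of the brain. Laminins are its organisers: each is a trimer of 1 alpha, 1 beta and 1 gamma chain that binds cells through the end of the alpha chain and joins other laminins through the short arms. Nidogens link the laminin network to type IV collagen through a site on the gamma chain, and perlecan is a large heparan sulfate proteoglycan that holds growth factors in the sheet. In the ventricle wall, laminin-rich deposits called fractones reach from the perivascular basement membrane to the ependymal layer and the stem cells next to it.

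Total counts were 13071766 to 28087006 per library, with WT replicate 2 the shallowest. Edf1, the targeted gene, had 80.2 to 85.9 CPM (counts relative to library size, scaled by TMM) in WT and 9.84 to 13.2 CPM in Edf1 KO, a log2 fold change of -2.85 (SE 0.091). Genotype separated the libraries along the first principal component, and WT replicate 2 stood apart from the other WT libraries along the second. On the first component WT replicate 2 (-32.5) also lay farther from the knockout libraries than WT replicates 1 and 3 (both -18.1). Ependymal markers were present in both genotypes, with Foxj1 at 788 ± 43.4 CPM in WT and 523 ± 10.3 CPM in Edf1 KO (SD, n = 3).

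All 10 basement membrane genes were higher in Edf1 KO, and for each of them every knockout library exceeded every WT library. Each passed edgeR's quasi-likelihood test at an adjusted p under 0.05, taken over the 14243 genes with enough counts to be tested. Among all tested genes, 26.9% were called (12.7% higher and 14.2% lower), and 43.3% had groups that did not overlap (21.3% with all knockout values above the WT values). The log2 fold changes of the 10 genes ran from 0.15 for Lamb2 to 1.29 for Lama1, with a median of 0.57, against a median of 0.0029 over all tested genes. All 10 genes also met the low-count filter in the WT libraries alone, so none was tested only because it was high in Edf1 KO. In bulk RNA, more cells of a type and more RNA per cell cannot be told apart.

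**Figure D1:**
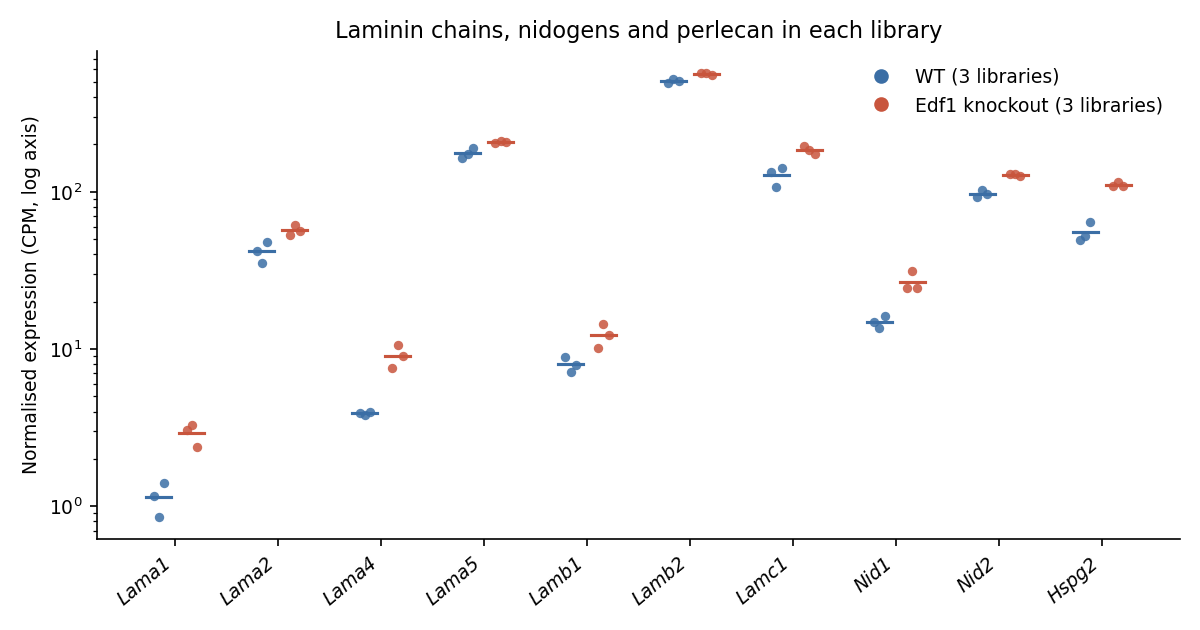
Normalised expression (CPM, log axis) of the 10 genes in each library, with 1 point per library and a line at the mean of each genotype. The 3 knockout points lie above the 3 WT points for every gene, with the widest relative gaps at Lama1 (means 1.14 and 2.91 CPM) and Lama4 (means 3.89 and 9.06 CPM).

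The alpha chain decides which receptors a laminin binds, and all 4 alpha genes rose. Lama1, whose chain is made early in development and by epithelia and the meninges, had 1.17, 0.855 and 1.41 CPM in WT replicates 1, 2 and 3 and 3.07, 3.29 and 2.37 CPM in Edf1 KO. All 3 knockout values lay above the highest WT value. Its log2 fold change of 1.29 (SE 0.25) was the largest of the 10, with an adjusted p of 0.00242 by edgeR, and also the least precise. The WT values rest on 31, 11 and 26 reads, and an exact 95% Poisson interval for the 11 reads in WT replicate 2 is 5.49 to 19.7, which covers counting error only. In CPM, such intervals overlapped between WT replicate 3 (0.918 to 2.06) and knockout replicate 3 (1.84 to 3.01).

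Lama4, whose chain lacks the short-arm domain that joins laminins to each other and is typical of vessels and mesenchyme, had 3.92, 3.81 and 3.95 CPM in WT. The knockout libraries had 7.62, 10.5 and 9.03 CPM. WT values were nearly equal while the knockout values were spread, with replicate 2 the highest. The log2 fold change was 1.22 (SE 0.15, adjusted p 7.77e-05 by edgeR). Lama2, the alpha chain of muscle and of the glial and vascular basement membranes of brain, had 42.1, 35.4 and 48.0 CPM in WT and 53.4, 61.7 and 56.5 CPM in Edf1 KO. The gap between the highest WT and the lowest knockout library was small, and the log2 fold change was 0.44 (SE 0.094, adjusted p 0.00403 by edgeR).

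Lama5, the alpha chain of most epithelial basement membranes, had 164, 174 and 190.1 CPM in WT and 205, 210.4 and 207 CPM in Edf1 KO. The knockout libraries were close to each other and above all WT libraries. Its log2 fold change was 0.24 (SE 0.057, adjusted p 0.00895 by edgeR), a rise 1.18-fold in size. The call of Lama5 was lost without WT replicate 1 (log2 fold change 0.19, adjusted p 0.0518 by edgeR) and after a correction for GC content and transcript length chosen after seeing the data (0.035, adjusted p 0.712 by edgeR), with adjusted p-values of 0.00140 to 0.712 over all alternatives.

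The beta and gamma chains also rose. Lamb1, the more widely used beta chain, had 8.89, 7.15 and 7.89 CPM in WT and 10.1, 14.5 and 12.3 CPM in Edf1 KO. Knockout replicate 1 lay just above the highest WT library and knockout replicate 2 far above it. The log2 fold change was 0.61 (SE 0.14, adjusted p 0.00632 by edgeR). Lamc1, the gamma chain of most laminin trimers and the one that binds nidogen, had 134, 108 and 142 CPM in WT and 194, 185 and 174 CPM in Edf1 KO. The groups were well apart, with WT replicate 2 the lowest. The log2 fold change was 0.52 (SE 0.085, adjusted p 0.000602 by edgeR).

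Lamb2, the beta chain of synaptic, renal and vascular basement membranes, had the highest counts and the smallest change. It had 495, 521 and 509.6 CPM in WT and 570.3, 568 and 557 CPM in Edf1 KO. The values did not overlap, yet the rise was only 1.11-fold, or 0.15 on the log2 scale (SE 0.043, adjusted p 0.0200 by edgeR). The call of Lamb2 was lost without WT replicate 1 (adjusted p 0.0934 by edgeR), without knockout replicate 1 (0.0960) or without knockout replicate 2 (0.0755), at a threshold of 0.01, and after the GC and length correction, where the log2 fold change was 0.042 (adjusted p 0.489 by edgeR). Over all alternatives its adjusted p ran from 0.000713 to 0.489.

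The nidogens and perlecan, which join the networks of the sheet, all rose. Nid1 had 14.8, 13.5 and 16.3 CPM in WT and 24.3, 31.2 and 24.6 CPM in Edf1 KO. The knockout was higher by 0.83 on the log2 scale (SE 0.11, adjusted p 0.000134 by edgeR), and knockout replicate 2 was again the highest library. Nid2 had 92.3, 102 and 97.5 CPM in WT and 130.5, 129 and 126 CPM in Edf1 KO, with little spread in either genotype. Its log2 fold change was 0.40 (SE 0.055, adjusted p 0.000177 by edgeR). Exons of Nid2 overlap those of Rtraf on the opposite strand over 437 bases, and it is not given whether the counting used strand. Rtraf itself had a log2 fold change of -0.033 (adjusted p 0.760 by edgeR).

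Hspg2, the perlecan gene, had 49.7, 52.1 and 64.4 CPM in WT and 109, 115 and 108 CPM in Edf1 KO. Every knockout library was far above the highest WT library. The level was 2.0-fold higher, a log2 fold change of 1.0 (SE 0.085) with the smallest adjusted p of the 10 genes, 3.68e-06 by edgeR. After the GC and length correction the log2 fold change of Hspg2 was 0.78, still called. The longest transcripts of Hspg2, Lama5 and Lamb2 have 60.9%, 59.9% and 58.8% G and C, the highest of the 10 genes.

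**Figure D2:**
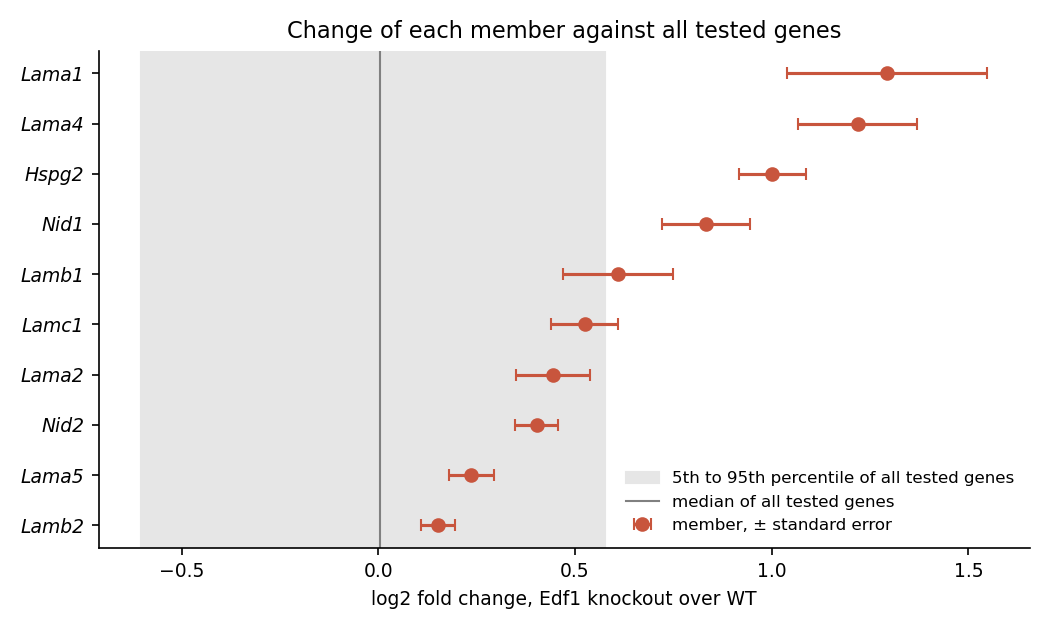
Log2 fold change of each gene, knockout over WT, with its standard error, on the background of all tested genes (grey band from the 5th to the 95th percentile, -0.60 to 0.58, and line at their median). Lama1, Lama4, Hspg2, Nid1 and Lamb1 lie beyond the band, and Lama5 and Lamb2 lie closest to the median.

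Placed among all 14243 tested genes by log2 fold change, the 10 genes ranked from above 73.7% of them (Lamb2) to above 99.3% (Lama1). Within the knockout, replicate 2 had the highest value for 7 of the 10 genes. Within WT, replicate 3 had the highest value for 7 of them and replicate 2 the lowest for 6. All 10 genes were called without WT replicate 2, WT replicate 3 or knockout replicate 3. Without knockout replicate 1 or 2, 9 were called, the exception being Lamb2. Without WT replicate 1, 8 were called, the exceptions being Lama5 and Lamb2.

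The genes lie on 9 chromosomes, only Lama2 and Lama4 sharing one. In GENCODE M21 coordinates of GRCm38, the build named in the submitters' processing notes, Hspg2 spans chr4:137468769-137570630 on the plus strand, Lama1 chr17:67697259-67822647 on the plus strand and Lama4 chr10:38965515-39110188 on the plus strand. Lamb2 is the most compact, at chr9:108479736-108490530 on the plus strand. Lamb1 (chr12:31265234-31329644), Nid1 (chr13:13437551-13512269) and Nid2 (chr14:19751265-19811787) also lie on the plus strand. Lama2 (chr10:26980036-27619758), Lama5 (chr2:180176373-180225859) and Lamc1 (chr1:153218922-153332786) lie on the minus strand. At most 2.71% of the 31-base words in the longest transcript of any of the 10 genes (Nid1) occur in another annotated gene. Exons of Lama2 overlap those of Gm48084 over 631 bases and exons of Nid1 those of Gm48682 over 143 bases, both on the opposite strand.

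The sequence before the start sites of the genes was read from the RefSeq promoter table (GRCm38.p6), which holds 6 of the 10 (Lama2, Lama5, Lamb1, Lamb2, Nid1 and Hspg2). The 3 with the largest log2 fold change among these are shown 5′ to 3′ on the strand of the gene, ending before the annotated start. Capitals mark GGGCGG (a GC box) or CCAAT on either strand.
Hspg2, chr4:137468553-137468768: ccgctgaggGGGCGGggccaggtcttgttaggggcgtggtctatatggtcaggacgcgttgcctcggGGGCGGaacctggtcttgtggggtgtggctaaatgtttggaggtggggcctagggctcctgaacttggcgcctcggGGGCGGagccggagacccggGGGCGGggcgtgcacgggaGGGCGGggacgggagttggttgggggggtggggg
Nid1, chr13:13437352-13437550: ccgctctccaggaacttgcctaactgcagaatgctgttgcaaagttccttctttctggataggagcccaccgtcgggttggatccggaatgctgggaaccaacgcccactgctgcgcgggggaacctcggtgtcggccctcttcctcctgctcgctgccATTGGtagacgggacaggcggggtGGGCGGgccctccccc
Lamb1, chr12:31265043-31265233: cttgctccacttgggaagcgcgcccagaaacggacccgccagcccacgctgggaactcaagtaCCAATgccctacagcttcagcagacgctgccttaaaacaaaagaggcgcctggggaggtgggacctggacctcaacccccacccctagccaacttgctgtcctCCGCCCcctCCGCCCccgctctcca
The Hspg2 stretch of 216 bases is 70.8% G and C and has 5 GC boxes and no CCAAT, whereas Nid1 has 1 of each and Lamb1 has 2 GC boxes and 1 CCAAT.

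In windows of 250 bases before the start, GGGCGG on either strand occurred in 4 of the 6 promoters and in 32.7% of all 32851 RefSeq promoters of the same length. CCAAT occurred in 2 of the 6 and in 33.8% of all. TATAAA occurred in 0 of the 6 and in 12.4% of all, and TGANTCA, the letters bound by AP-1, in 0 of the 6 and in 6.75% of all. The windows of Lamb2 and Lama2 held none of the 4 motifs, and the Lamb2 window was 43.6% G and C. The RefSeq entry of Lama2 lies inside the GENCODE gene. In the printed stretches no matches share a base, and a match describes the sequence only.

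To compare the genes with each other, CPM was divided by the length of all annotated exons of each gene in kb. In WT, Lamb2 stood first at 83.6 ± 2.13 CPM per kb, followed by Nid2 at 18.8 ± 0.94, Lama5 at 15.5 ± 1.16 and Lamc1 at 15.4 ± 2.12 CPM per kb (SD, n = 3). Lama5 and Lamc1 could not be ordered in WT, since their libraries overlapped. Hspg2 followed at 3.87 ± 0.55 CPM per kb, then Lama2 at 2.56 ± 0.39 and Nid1 at 2.14 ± 0.20, the latter pair again overlapping. Lamb1 (0.804 ± 0.088), Lama4 (0.322 ± 0.0061) and Lama1 (0.118 ± 0.029 CPM per kb) were the lowest.

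In the knockout the order changed at 2 places. Lamc1 reached 22.3 ± 1.27 CPM per kb and passed Lama5 at 18.2 ± 0.25 CPM per kb, with no overlap between their libraries. Nid1 at 3.85 ± 0.56 had a mean above that of Lama2 at 3.50 ± 0.26 CPM per kb, but their libraries overlapped. With the longest transcript as the length, Lamc1 stood above Lama5 in both genotypes, the WT libraries overlapping, Lama2 stood above Nid1 in both genotypes, and Hspg2 passed Lama2.

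**Figure D3:**
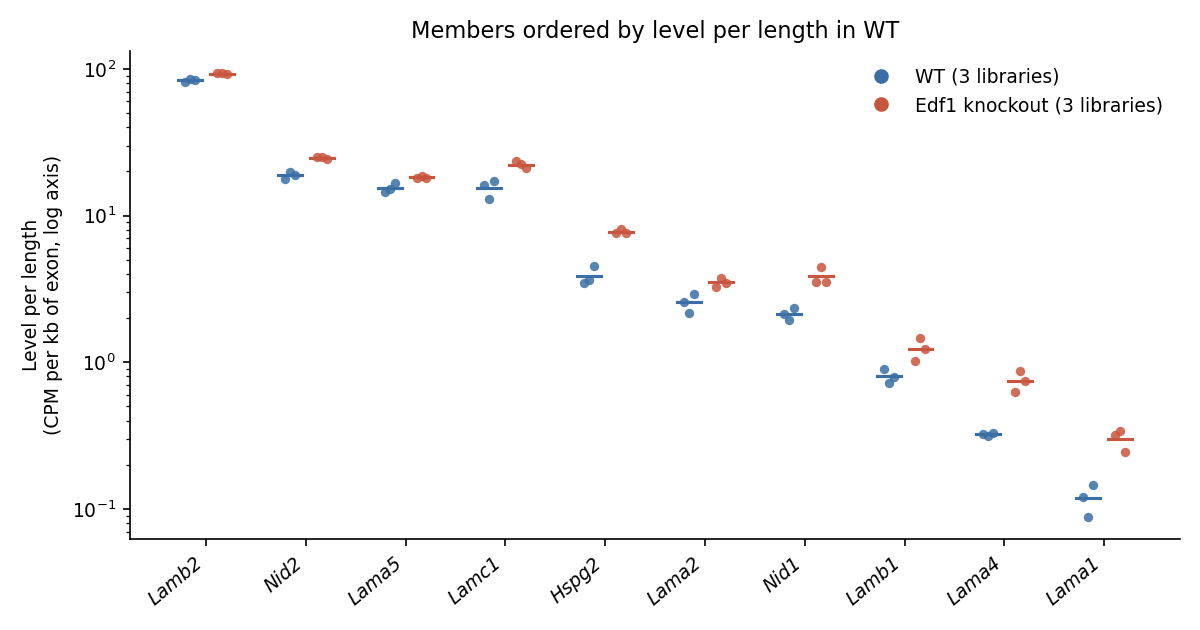
Level per length (CPM per kb of exon, log axis) of each gene in the 3 WT and 3 knockout libraries, ordered by the WT mean, with a line at the mean of each genotype. Lamb2 stands at 83.6 and 92.9 CPM per kb, far above the rest, while the lowest genes, Lama4 and Lama1, show the widest relative gaps between genotypes.

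Across the 10 genes, Spearman's rho between the WT level per kb and the log2 fold change was -0.88. This is a description over genes measured in the same 6 libraries, and the WT values enter both quantities. In amounts, the mean rose most for Lamb2 (9.28 CPM per kb), then Lamc1 (6.84), Nid2 (6.02) and Hspg2 (3.88 CPM per kb), and least for Lama1 (0.183 CPM per kb). These amounts carry no GC and length correction, under which the log2 fold change of Lamb2 was 0.042 and not called while that of Lamc1 was 0.42 and called. The order of the amounts and the sums by class were not recomputed under it, and the first place of Lamb2 is given only for uncorrected values.

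Summed by class, which was not tested, the alpha chains went from 18.5 ± 1.44 to 22.8 ± 0.65 CPM per kb, the beta chains from 84.4 ± 2.04 to 94.1 ± 1.19, and the single gamma chain from 15.4 ± 2.12 to 22.3 ± 1.27 CPM per kb (SD, n = 3). The beta sum was 5.10, 6.62 and 4.94 times the gamma level in the WT libraries and 4.03, 4.24 and 4.42 times in Edf1 KO libraries. All knockout ratios lay below the WT ratios. The alpha sum was 1.08, 1.37 and 1.18 times the gamma level in WT and 0.944, 1.05 and 1.08 times in Edf1 KO, where the closest libraries nearly touched. With the longest transcript as the length, these last ranges overlapped. These are ratios of transcripts and say nothing of the trimers made.

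Within the alpha class, Lama5 made up 82.7%, 85.6% and 83.0% of the summed level in WT and 81.0%, 78.7% and 80.3% in Edf1 KO. The share of Lama4 was 1.75 ± 0.12% in WT and 3.29 ± 0.44% in Edf1 KO, and that of Lama1 was 0.636 ± 0.12% and 1.32 ± 0.21% (SD, n = 3). For these 3 genes the shares of the genotypes did not overlap. The share of Lama2 was 14.8%, 12.1% and 14.6% in WT and 14.7%, 16.1% and 15.3% in Edf1 KO, which did overlap. Lamb2 held 99.0 ± 0.13% of the beta class in WT and 98.7 ± 0.23% in Edf1 KO, with overlap. Nid2 held 89.7 ± 1.12% of the nidogen class in WT and 86.6 ± 1.63% in Edf1 KO with no overlap. In both genotypes the highest gene of each class was the same: Lama5, Lamb2, Lamc1 and, among nidogens, Nid2.

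**Figure D4:**
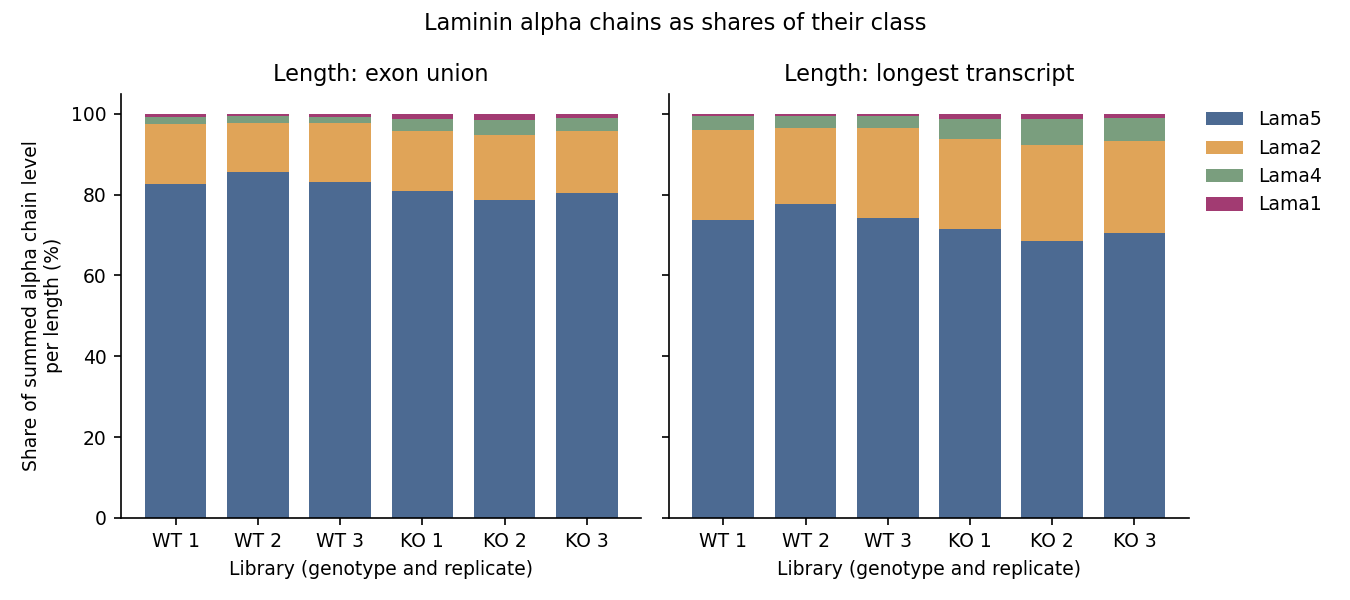
Share of each alpha chain gene in the summed alpha level per length (%), by library (WT or knockout, KO, with replicate number), with all exons as the length (left) or the longest transcript (right). Lama5 takes the largest share in all 6 libraries, 78.7% to 85.6% on the left, and the bands of Lama4 and Lama1 are wider in Edf1 KO.

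Of laminin chains outside the 10 genes, Lama3, of the epidermal type of laminin, had 9.17 ± 1.11 CPM in WT and 7.40 ± 0.43 CPM in Edf1 KO (log2 fold change -0.30, adjusted p 0.0977 by edgeR). It did not pass the test. Lamb3 and Lamc3 had at most 8 counts in any library and were not tested.

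Further lists of the pathway are read against the 12.7% of all tested genes that were called higher and the 14.2% called lower. Of 8 basement membrane collagens tested, 5 rose (62.5%) and 0 fell. Their median log2 fold change was 0.37, or 0.27 after the GC and length correction. The largest rise was that of Col18a1, the collagen that gives rise to endostatin, from 25.8 ± 2.04 to 67.0 ± 5.59 CPM (log2 fold change 1.38, adjusted p 2.77e-07 by edgeR). Of the type IV chains, Col4a1 and Col4a2, the main pair of most basement membranes, rose by 0.32 and 0.48 on the log2 scale. The minor chains Col4a5 and Col4a6 rose by 0.41 and 0.53. Col4a3 (0.29, adjusted p 0.167 by edgeR) and Col4a4 (-0.12, adjusted p 0.455 by edgeR), both among the chains of the glomerulus, did not pass. Col15a1 had -0.65 and did not pass (adjusted p 0.0689 by edgeR).

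Of the other basement membrane proteins, 11 of 17 tested rose (64.7%) and 1 fell. Their median log2 fold change was 0.41, or 0.30 after the GC and length correction. Hmcn1, which encodes the very large matrix protein hemicentin, rose from 2.46 ± 0.58 to 7.16 ± 1.04 CPM (log2 fold change 1.51, adjusted p 8.44e-05 by edgeR). The fibulin genes Fbln1 and Fbln2 rose by 0.61 and 0.60 on the log2 scale. Smoc1, for a calcium-binding matrix protein, was called lower at -0.25. The call of Fbln2 was lost without WT replicate 1 (adjusted p 0.0539 by edgeR) or knockout replicate 1 (0.0605). That of Smoc1 (adjusted p 0.0295 by edgeR) was lost by DESeq2 (adjusted p 0.0724), without WT replicate 1 (0.0917) or 3 (0.0903) and without knockout replicate 1 (0.0738), 2 (0.0985) or 3 (0.0727).

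Of 22 genes for laminin receptors and their complexes, 8 rose (36.4%) and 2 fell, with a median log2 fold change of 0.22, which was 0.14 without WT replicate 2. Itgb4, which pairs with the integrin alpha 6 chain, rose from 4.91 ± 0.38 to 11.4 ± 1.32 CPM (log2 fold change 1.19, adjusted p 3.40e-05 by edgeR). Itga7, a laminin-binding integrin chain, rose from 26.6 ± 1.17 to 49.02 ± 2.85 CPM (0.89, adjusted p 2.75e-06 by edgeR), and the syndecan gene Sdc1 rose by 0.48 on the log2 scale. Itgb8, the integrin chain through which glia activate latent TGF-beta, fell by 0.68 on the log2 scale (adjusted p 0.000131 by edgeR), and the sarcoglycan gene Sgcb fell by 0.29 (adjusted p 0.00164 by edgeR). Dag1, for dystroglycan, which binds laminins and perlecan through a sugar chain, had 503 ± 29.5 CPM in WT and 546 ± 30.6 CPM in Edf1 KO and was not called (0.12, adjusted p 0.151 by edgeR). Itga6 had a log2 fold change of 0.019 (adjusted p 0.870 by edgeR).

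Of the 18 enzymes that build this sugar, 1 rose (5.56%) and 1 fell. Their median log2 fold change was 0.024, and it changed sign among the alternatives (-0.011 to 0.037). Pomt1, which starts the chain, fell by 0.48 (adjusted p 0.000113 by edgeR). Large2, of the enzymes that extend it, was called higher at 1.36 (adjusted p 0.0265 by edgeR), from 0.406 ± 0.27 to 1.16 ± 0.19 CPM, but not without WT replicate 3 (adjusted p 0.0848 by edgeR), knockout replicate 1 (0.0715) or knockout replicate 3 (0.109). Without WT replicate 1 its log2 fold change was 2.18.

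Among proteases, inhibitors and assembly enzymes, 11 of 24 tested genes rose (45.8%) and 1 fell, with a median log2 fold change of 0.17. Timp1, an inhibitor of metalloproteases, rose by 1.16 (adjusted p 0.00522 by edgeR). Mmp2, a gelatinase that cleaves type IV collagen, rose from 11.6 ± 1.56 to 25.3 ± 2.05 CPM (1.13, adjusted p 7.53e-06 by edgeR), and Mmp19 rose by 1.06 (adjusted p 0.000122 by edgeR). Timp4 fell by 0.40 (adjusted p 0.00201 by edgeR). Mmp9, the other gelatinase, had at most 2 counts in any library.

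**Figure D5:**
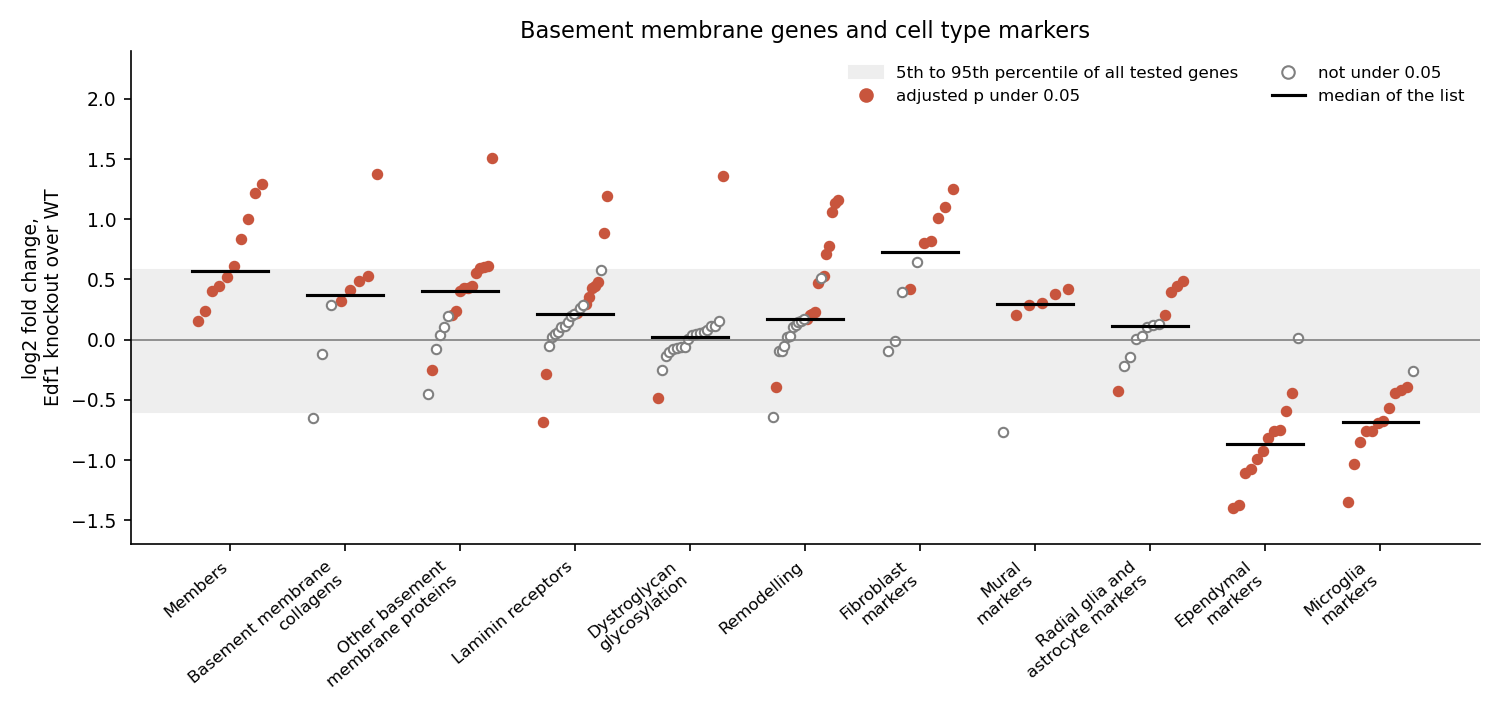
Log2 fold change, knockout over WT, of every tested gene in the 10 genes, 5 further lists of the pathway and the fibroblast, mural, radial glial, ependymal and microglial marker lists, with filled points at an adjusted p under 0.05, open points otherwise, a black line at the median of each list and a grey band from the 5th to the 95th percentile of all tested genes. The medians of the matrix lists and of fibroblast markers (0.73) lie above 0, that of glycosylation enzymes near 0 (0.024), and those of ependymal (-0.87) and microglial markers (-0.68) below 0.

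Of the markers of other cells that make basement membrane, those of fibroblasts and mural cells were higher where they were called. Over all tested genes, 12.7% were called higher and 14.2% lower. Of the meningeal fibroblast markers, 6 of 10 tested rose (60%) and 0 fell. Their median log2 fold change was 0.73 (0.54 to 0.89 with 1 library left out). Summed levels of all 12 markers were 386 to 423 CPM in WT and 549 to 562 CPM in Edf1 KO. Ogn (256 ± 11.5 CPM in WT and 343 ± 26.0 CPM in Edf1 KO) made up most of these levels. The 6 called were the collagen genes Col1a1, Col1a2 and Col3a1, and Dcn, Lum and Ogn. Not called by edgeR were Pdgfra (-0.091, adjusted p 0.584), Islr (-0.014, 0.880), Foxc1 (0.40, 0.0534) and Foxd1 (0.65, 0.196). Of the mural cell markers, 5 of 6 tested rose (83.3%) and 0 fell, with sums of 825 to 869 CPM in WT and 979 to 1058 CPM in Edf1 KO. Acta2 (475 ± 19.0 CPM in WT and 586 ± 21.9 CPM in Edf1 KO) and Tagln (288 ± 10.0 and 331 ± 16.5 CPM) made up most of these sums. Myh11 was not called (-0.76, adjusted p 0.263 by edgeR). The defining pericyte genes Abcc9 and Higd1b stayed at or under 3 counts in every library, and Rgs5, Kcnj8, Des and Vtn were not tested either. Of the endothelial markers, Cldn5, Tie1 and Emcn were at or under 3 counts in every library. Of the 3 of 12 that could be tested, 1 rose and 1 fell (33.3% each). Their median log2 fold change was -0.051 and took either sign among the alternatives (-0.24 to 0.14). Kdr rose from 38.1 ± 3.16 to 127 ± 2.16 CPM and carried the sum of 49.6 to 55.3 CPM in WT and 132 to 136 CPM in Edf1 KO. Flt1 fell from 11.3 ± 0.65 to 3.81 ± 0.28 CPM (log2 fold change -1.58, adjusted p 2.49e-06 by edgeR), and Egfl7 was not called (-0.051, adjusted p 0.910 by edgeR).

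Of 12 ependymal markers, 0 rose and 11 fell (91.7%), against 14.2% of all tested genes called lower. Their sums were 2534 to 2843 CPM in WT and 1493 to 1585 CPM in Edf1 KO. Of 12 microglia markers, 0 rose and 11 fell (91.7%), with sums of 2175 to 2342 CPM in WT and 1407 to 1446 CPM in Edf1 KO. Radial glia and astrocyte markers had 4 of 12 called higher (33.3%) and 1 lower (8.33%). Their sums were 10258 to 10749 CPM in WT and 11253 to 11676 CPM in Edf1 KO. Of the choroid plexus markers, 2 of 8 tested rose (25%) and 1 fell (12.5%), with Prlr at or under 3 counts in every library. Their sum was 139.8 to 173 CPM in WT and 178 to 204 CPM in Edf1 KO. Most of the difference in that sum came from Trpm3 (5.97 ± 0.61 and 34.6 ± 2.97 CPM), while the more abundant Ttr (-0.11, adjusted p 0.753 by edgeR) and Folr1 (0.17, adjusted p 0.122 by edgeR) were not called. The median log2 fold change of the 8 was -0.0022 and took either sign among the alternatives (-0.19 to 0.16). The part of any of these cell types in the higher laminin, nidogen and perlecan counts was not tested.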

How the data were processed

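RNA was sequenced from 3 WT and 3 Edf1 KO cultures. The authors deposited whole-number read counts per gene symbol, 1 column per library. FastQC 0.11.2, cutadapt 1.11, HISAT2 2.1.0 and the build GRCm38 are named in the submitters' processing notes; the counting program, annotation, strand setting and treatment of multi-mapped reads are not given in the sources used here. The table had 0 rows without a gene name and 0 unused sample columns.

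Counts were analysed in R 4.3.3. Genes were kept by filterByExpr of edgeR 4.0.16 (14243 of 22851), scaled with TMM, and tested with edgeR's quasi-likelihood test with no covariate and Benjamini-Hochberg adjustment over all tested genes, at a threshold of 0.05. Standard errors are the fold change over the square root of F. Lengths and GC content came from GENCODE M21. The members, lists and tests were chosen with earlier results of these data known. Genes named are the 10 members, Edf1 and, per list, the 3 largest rises and falls among called genes; others were chosen after their values were seen. Promoters are those of the called members with the largest changes that the RefSeq table holds. Alternatives were 2 other scalings, 2 other filters, DESeq2 1.42.0, voom of limma 3.58.1, the replicate as a block, leaving out each library, a threshold of 0.01, the longest transcript as length and, chosen after seeing the data, a GC and length correction (splines with 4 degrees of freedom, properties for 99.04% of tested genes). The fits were tested on simulated data. Some genes of the lists are not reported here by name.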

Additional observations from a re-analysis of the deposited data

How the results depend on the processing

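Of the 10 genes, 8 to 10 were called higher and 0 lower in each of the 15 alternatives, and none changed direction. Lama5 and Lamb2 were the genes whose calls were lost, and Lama1 was not tested when a mean of 50 counts was required, which left 9. The log2 fold change of Edf1 was -2.99 to -2.75. The count of changed genes was 3833, or 2213 at a threshold of 0.01, and 2658 to 4340 when 1 library was left out. With a replicate block the fit gave 4065 changed genes and all 10 members higher. Same-numbered libraries deviated together with correlations of only 0.069, 0.060 and 0.037, so no pairing was assumed. With the longest transcript as the length, the shares in WT and the knockout were 21.1% and 22.9% for Lama2, 3.14% and 5.76% for Lama4, 75.2% and 70.2% for Lama5, 1.51% and 2.08% for Lamb1, and 98.5% and 97.9% for Lamb2, because these genes have transcripts much shorter than their joined exons or share a class with one that has. Depth limits Lama1 most.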

Other observations

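Further genes of the same lists, chosen after their values were seen, give detail on the sheet's other parts. Agrn, for the heparan sulfate proteoglycan agrin, was higher by 0.43 on the log2 scale (205.5 ± 16.6 CPM in WT and 277 ± 2.27 CPM in Edf1 KO, adjusted p 0.000151 by edgeR). Sulf1, which removes sulfate from heparan sulfate chains, was higher by 0.78 (adjusted p 3.67e-06 by edgeR), and its relative Sulf2 by 0.21 (adjusted p 0.0121 by edgeR). Among integrin chains, Itgb1, the shared partner of most laminin receptors, was higher by 0.29 (533 ± 14.1 and 653 ± 16.6 CPM, adjusted p 0.000356 by edgeR) and Itga3 by 0.35 (adjusted p 0.000386 by edgeR). Serpinh1, a chaperone of collagen folding, was higher by 0.21 (adjusted p 0.00309 by edgeR), while the lysyl hydroxylase genes Plod1, Plod2 and Plod3 had adjusted p-values of 0.510, 0.150 and 0.715 by edgeR.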
